A study of Homo sapiens with 9 samples.

Results

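CXCL9, CXCL10 and CXCL11 are the 3 chemokine genes whose products bind the receptor CXCR3. They were found in the deposited table by the RefSeq accession in each probe set's name, which gave 1 probe set for each gene, or 3 of 1259 probe sets and 3 of 927 named genes. All 3 probe sets carry the plain suffix, without the marks for shared or cross-hybridising sequence. The values are log2 signals from 9 single-colour arrays in 3 groups of 3. The first group was T84, a human colon carcinoma line, given interferon gamma at 100 U/ml for 24 hours. The second was T84 left untreated, at passage 68. The third was Caco-2, another human colon carcinoma line, also untreated, at passage 37. Untreated cells of both lines were about 90% confluent in 6-well plates when harvested, while passage and confluence of the treated cells were not found in the labels used here. The series was made to look for glycosylation genes behind an interferon-dependent sialylated CD44 variant in T84. Caco-2 was not treated in this series, so its response to interferon gamma was not analysed here. Each line is a single cancer-derived model. The labels give the replicates numbers but do not describe them as separate cultures or dishes. The p-values therefore rest on the spread between arrays alone, and that spread may be technical.

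CXCL9, also called MIG, CXCL10, also called IP-10, and CXCL11, also called I-TAC, are CXC chemokines without the ELR motif that marks neutrophil attractants. Interferon gamma binds its receptor on the cell surface, which signals through the kinases JAK1 and JAK2. Many genes that respond to it, among them the transcription factor gene IRF1, carry GAS or ISRE elements near their starts. CXCR3 is carried mainly by activated T cells and natural killer cells, and epithelial cells of the inflamed gut are a known source of its ligands. CXCL11 also binds the atypical receptor ACKR3.

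The 3 genes lie close together on chromosome 4 and are read from the minus strand. Ordered by start coordinate in the RefSeq gene table (GRCh38.p14), they come as CXCL9, ART3, CXCL10 and CXCL11, so that 1 unrelated gene starts within the cluster. Gene ends were not compared, so overlap between these genes was not examined. The 250 bases before each annotated gene start are printed here because the 3 genes moved together after treatment. They are given 5′ to 3′ on the gene's strand, from RefSeq, build GRCh38.p14. Capitals mark matches to the interferon-linked motifs GAS and ISRE core and to the κB consensus, the motif of NF-κB.
CXCL9, chr4:76007510-76007759, minus strand: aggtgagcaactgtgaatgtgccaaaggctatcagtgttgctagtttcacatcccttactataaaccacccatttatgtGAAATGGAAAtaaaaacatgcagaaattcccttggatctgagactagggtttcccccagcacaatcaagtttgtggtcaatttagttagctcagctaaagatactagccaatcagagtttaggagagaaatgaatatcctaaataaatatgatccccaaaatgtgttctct
CXCL10, chr4:76023498-76023747, minus strand: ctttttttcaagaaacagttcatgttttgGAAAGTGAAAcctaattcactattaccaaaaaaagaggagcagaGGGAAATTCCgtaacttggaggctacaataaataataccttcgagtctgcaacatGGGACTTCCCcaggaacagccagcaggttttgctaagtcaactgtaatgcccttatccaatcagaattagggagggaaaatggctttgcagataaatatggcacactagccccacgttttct
CXCL11, chr4:76036071-76036320, minus strand: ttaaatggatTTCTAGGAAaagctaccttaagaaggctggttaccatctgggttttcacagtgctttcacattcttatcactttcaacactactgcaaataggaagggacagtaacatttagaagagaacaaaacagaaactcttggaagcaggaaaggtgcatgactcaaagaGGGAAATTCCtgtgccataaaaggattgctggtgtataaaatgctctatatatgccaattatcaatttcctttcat

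Motifs were searched on both strands. The ISRE core, in which the word GAAA occurs 2 times with any 2 bases between, matched once upstream of CXCL9, from base -171 to -162 counted from the gene start, and once upstream of CXCL10, from -221 to -212. It was present in 3.02% of 35116 RefSeq upstream windows of the same length. The GAS motif, TTCNNNGAA, matched once upstream of CXCL11, from -240 to -232, and in 6.57% of all windows. The κB consensus matched upstream of CXCL10 from -177 to -168 and from -122 to -113, upstream of CXCL11 from -76 to -67, and in 5.21% of all windows. TATAAA matched upstream of CXCL9 (-191 to -186) and of CXCL11 (-42 to -37), and in 10.7% of all windows. Each gene had 1 match to CCAAT, which 32.0% of all windows contain. No matches of different motifs overlapped. The longest word shared by the CXCL10 and CXCL11 windows was the 13 bases agagggaaattcc, which contain a κB match. They occur in 3 of the 35116 windows, the CXCL10 and CXCL11 windows among them. CXCL9 and CXCL10 shared at most the 9 bases ccaatcaga (0.792% of all windows), and CXCL9 and CXCL11 the 8 bases tttcacat (0.467%). Each word was picked because the windows share it, so its share is not a test. A match is only a run of letters, and a missing match says only that these letters are not in this window.

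**Figure D1:**
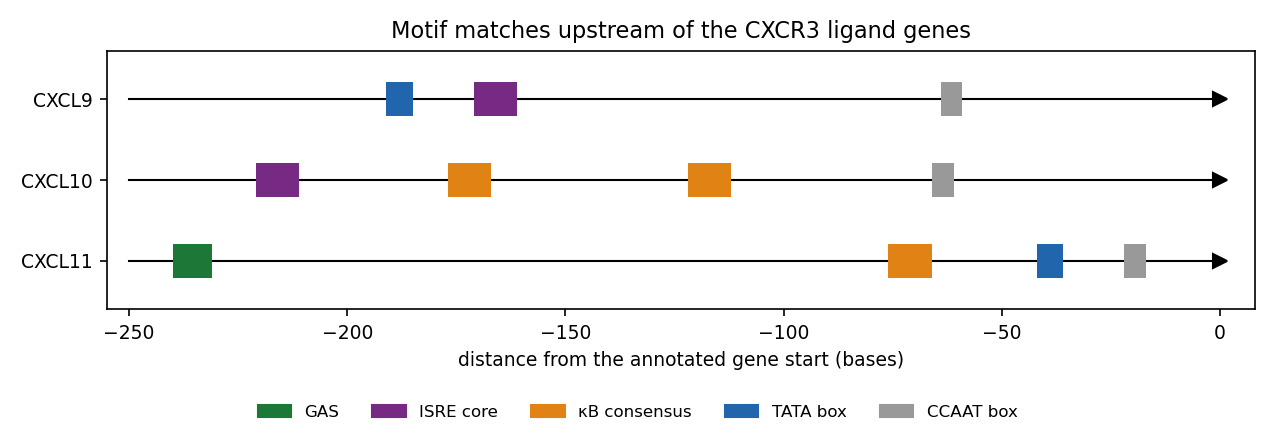
Motif matches in the 250 bases before the annotated start of CXCL9, CXCL10 and CXCL11, with the distance from the start in bases on the horizontal axis. Coloured blocks are matches on either strand and the arrowhead is the gene start. The CXCL9 and CXCL10 windows hold an ISRE core, the CXCL11 window a GAS match, and the CXCL10 and CXCL11 windows κB matches.

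Array medians lay between 6.7 and 6.8 log2 units and the level below which the dimmest 10% of probe sets fell lay between 4.14 and 4.21. Precision is limited by having 3 arrays in a group. Treated T84 replicate 3, untreated T84 replicate 3 and Caco-2 replicate 1 deviated from their groups together, with correlations of their deviations across all probe sets from 0.484 to 0.756. Each fold change of the ligands was therefore also computed without these 3 arrays. Of the epithelial markers fixed for the check of the lines, LGALS4, MUC1 and MUC13 were in the table. Their group means were between 10.75 and 12.47 in treated T84, between 9.49 and 13.01 in untreated T84, and between 6.91 and 9.92 in Caco-2, where the intestinal galectin gene LGALS4 was lowest. Between treated and untreated T84 the mucin genes MUC1 and MUC13 were higher, by 1.26 and 0.40 log2 units, and LGALS4 was at -0.53, all past the test. Keratins and EPCAM were not analysed here.

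Interferon gamma raised all 3 CXCR3 ligands in T84. CXCL9, whose product draws activated T cells, had log2 signals of 12.36, 12.01 and 11.39 in treated T84, against 5.91, 5.66 and 5.80 in untreated T84 and 5.73, 5.71 and 5.77 in Caco-2. All 3 treated arrays stood far above the other 6, and untreated T84 overlapped Caco-2. The lowest treated array was 5.48 log2 units above the highest untreated T84 array. The change was 69.8-fold (95% confidence interval 50 to 97.3; log2 fold change 6.12 ± 0.21, SE; adjusted p = 6.5e-07 in limma, n = 3 per group).

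CXCL10, which also attracts T cells and is widely measured as a sign of interferon activity, had log2 signals of 13.04, 12.89 and 12.83 in treated T84, against 7.93, 7.59 and 7.93 in untreated T84 and 5.40, 5.33 and 5.35 in Caco-2. The 3 groups were separate, with treated T84 on top, untreated T84 in the middle and Caco-2 at the bottom. The treated arrays spanned only 0.21 log2 units. The rise in T84 was 34.5-fold (29.5 to 40.4; log2 fold change 5.11 ± 0.10, SE; adjusted p = 1.91e-08 in limma, n = 3 per group), with a gap of 4.91 between the nearest arrays of the 2 groups.

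CXCL11, the ligand that binds CXCR3 most tightly, had log2 signals of 10.71, 10.15 and 10.06 in treated T84, against 6.85, 6.28 and 5.68 in untreated T84 and 4.64, 4.21 and 4.37 in Caco-2. Its groups were also separate and in the same order, but its untreated T84 arrays were spread over 1.16 log2 units, the widest range of any ligand in any group. The rise in T84 was 16.4-fold (10.3 to 26.2; log2 fold change 4.04 ± 0.29, SE; adjusted p = 5.4e-05 in limma, n = 3 per group). Without untreated T84 replicate 3, the lowest of its group, the fold was 13.4, and without replicate 1, the highest, it was 20.1. The gap between the nearest treated and untreated arrays was 3.21 log2 units.

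**Figure D2:**
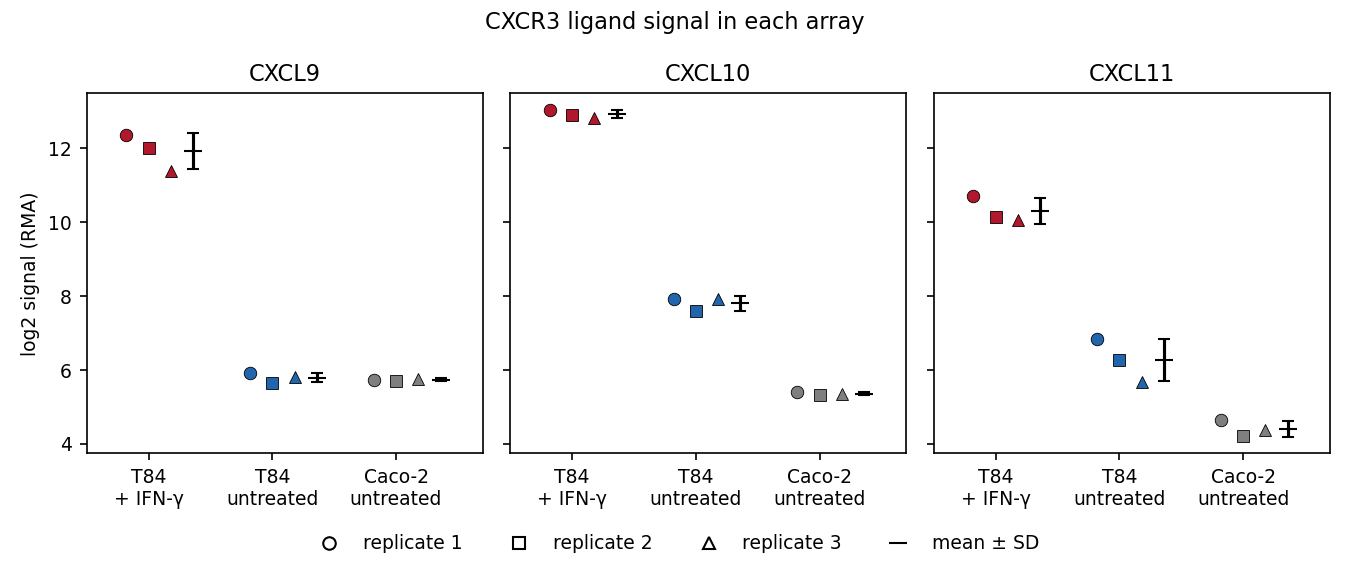
Log2 signal (RMA) of each ligand in the 9 arrays, 1 panel per gene, with groups along the horizontal axis from treated T84 to untreated T84 and Caco-2; symbols are replicates, and the bar beside them is the group mean ± SD (n = 3). Treated T84 lies above both other groups for every ligand. Untreated T84 lies above Caco-2 for CXCL10 and CXCL11, while the CXCL9 arrays of these groups overlap near 5.7.

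Over all probe sets, 10.2% passed the test between treated and untreated T84 in either direction, 4.37% of all passed as higher, and 27.5% had groups that did not overlap. All 3 ligands passed as higher and had separate groups, and by log2 fold change they ranked 1, 2 and 3 of 1259. Without the 3 arrays that deviated together, the folds were 84.2 for CXCL9, 37.1 for CXCL10 and 14.6 for CXCL11. Centring each array on its 50 ribosomal protein probe sets gave 308 higher and 52 lower calls, against 55 and 73 as deposited. The median log2 fold change over the table was then 0.14, against -0.01 as deposited. On that scale the ligands rose by 6.28, 5.26 and 4.19 log2 units for CXCL9, CXCL10 and CXCL11. In bulk RNA, more transcript per cell and more expressing cells cannot be told apart. The table holds no detection calls. It is therefore unknown whether CXCL9 or CXCL11 in untreated T84, or any of the ligands in Caco-2, stood above background.

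**Figure D3:**
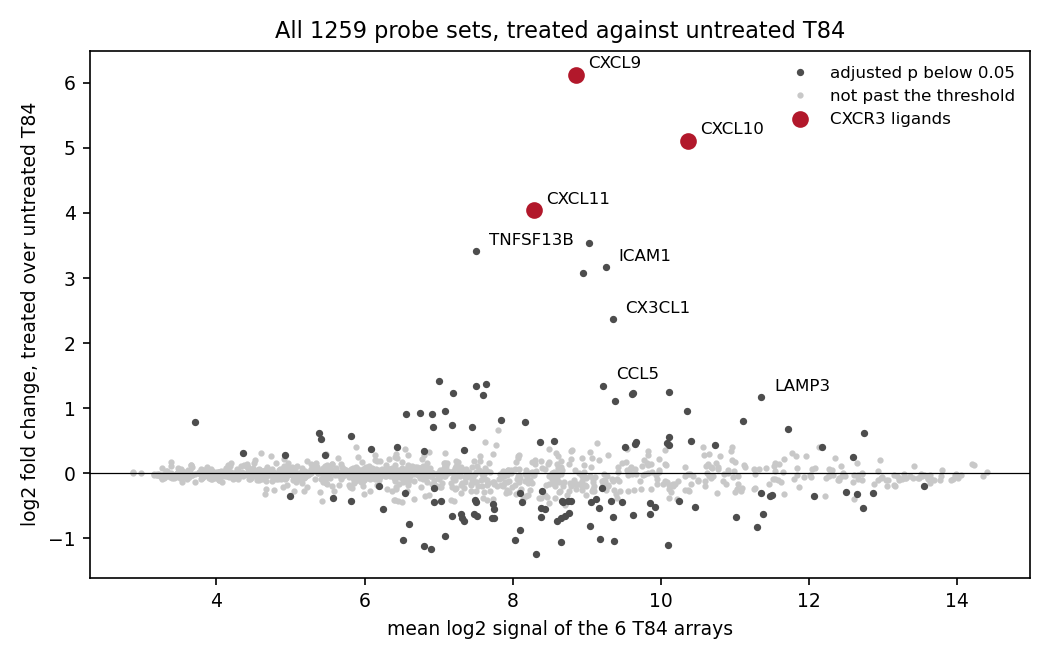
Log2 fold change of treated over untreated T84 (vertical axis) against the mean log2 signal of the 6 T84 arrays (horizontal axis) for all 1259 probe sets. Red points are the CXCR3 ligands, dark points other probe sets with an adjusted p below 0.05 and grey points the rest. The ligands, at 6.12, 5.11 and 4.04, lie above every other probe set.

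The estimated rise was largest for CXCL9 and smallest for CXCL11. The within-array difference of 2 ligands was compared between treated and untreated T84, which sets their fold changes, not their levels, against each other. CXCL9 rose 2.02 times as much as CXCL10 (95% confidence interval 1.46 to 2.8; difference of log2 fold changes 1.01 ± 0.19, SE), 4.25 times as much as CXCL11 (2.54 to 7.1), and CXCL10 rose 2.1 times as much as CXCL11 (1.21 to 3.65). In each pair the treated arrays did not overlap the untreated ones, and the two-sided exact permutation p was 0.1 for all 3 pairs, also after Benjamini-Hochberg adjustment over them. With 3 arrays against 3, 0.1 is the smallest p possible, so by this test the differences cannot reach 0.05. Whether CXCL9 (5.91, 5.66 and 5.80) or CXCL11 (6.85, 6.28 and 5.68) stood above background in untreated T84 is unknown. A CXCL9 signal at background would understate the ratios of CXCL9 to the other ligands. A CXCL11 signal at background would overstate the ratios of CXCL9 and CXCL10 to CXCL11.

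Within treated T84, replicate 1 was the highest and replicate 3 the lowest array for all 3 ligands. Replicate 1 deviated from the group mean by 0.44 log2 units for CXCL9, 0.12 for CXCL10 and 0.40 for CXCL11, and replicate 3 by -0.53, -0.09 and -0.25. Of the 8 other interferon gamma induced genes that passed the test, 5 were also highest in replicate 1 and 5 lowest in replicate 3. TNFSF13B, the gene of the B cell survival factor BAFF, showed the widest such spread of the 8, at 0.29, 0.22 and -0.51 for replicates 1, 2 and 3. The groups without interferon gamma had similar counts for these 8 genes. Untreated T84 replicate 3 was highest for 6 and replicate 2 lowest for 6. Caco-2 replicate 1 was highest for 5 and replicate 3 lowest for 6. Such counts over all probe sets were not made. Leaving out treated replicate 1 gave a CXCL9 fold of 59.9, and leaving out replicate 3 gave 83.8.

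The second comparison asked how far stimulated T84 stood from Caco-2, the line without the sialylated epitope. All 3 ligands were higher in treated T84, and CXCL10 differed most. CXCL10 was 189-fold higher (162 to 221), CXCL9 72.6-fold (52.1 to 101) and CXCL11 59.7-fold (37.5 to 95.2), with adjusted p values of 1.6e-10, 4.93e-08 and 6.13e-07 in limma (n = 3 per group). They ranked 1, 2 and 3 by log2 fold change, while 45.6% of all probe sets passed this comparison, 19.4% as higher, and 53.5% had separate groups. The log2 gaps between the nearest arrays were 7.43 for CXCL10, 5.62 for CXCL9 and 5.42 for CXCL11. Without the 3 arrays that deviated together, the folds were 198 for CXCL10, 87.1 for CXCL9 and 70.6 for CXCL11. Ribosomal centring gave 914 higher and 174 lower calls, against 244 and 330 as deposited, and a median over the table of 0.47, against 0.02. The CXCL9 fold was then 99.3, the CXCL10 fold 259 and the CXCL11 fold 81.8. CXCL11 in Caco-2, at 4.21 to 4.64, lay next to the level of the dimmest 10% of probe sets, so its folds over Caco-2 may be understated. Whether CXCL9 (5.71 to 5.77) and CXCL10 (5.33 to 5.4) stood above background in Caco-2 is unknown, so their folds may be understated too.

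The third comparison set the lines against each other without interferon gamma. In untreated T84, CXCL10 was 5.47-fold above its Caco-2 level (4.68 to 6.4, limma, n = 3 per group, with an adjusted p = 1.96e-07), and CXCL11 was 3.64-fold above it (2.28 to 5.79; adjusted p = 0.000848). The limits given for the CXCL10 and CXCL11 signals in Caco-2 apply to these folds too. The nearest arrays of the lines were 2.19 log2 units apart for CXCL10 and 1.04 for CXCL11. By log2 fold change these genes ranked 20 and 43 of 1259. CXCL9 averaged 5.79 ± 0.12 in untreated T84 and 5.74 ± 0.032 in Caco-2 (SD, n = 3 each), a log2 fold change of 0.06 ± 0.21 (SE) that did not pass (adjusted p = 0.847 in limma). Its interval, a fold of 0.746 to 1.45, leaves room for a modest difference either way. The spread behind it is shared with treated T84, where the CXCL9 SD was 0.49. Fitted on the 2 untreated groups alone, the log2 fold change had an SE of 0.07 (adjusted p = 0.597 in limma). Of all probe sets, 43.7% passed this comparison, 19.5% as higher, and 49.6% had separate groups. Ribosomal centring gave 845 higher and 188 lower calls, against 245 and 305 as deposited, and a median over the table of 0.32, against 0.02. Without the 3 arrays that deviated together, the folds were 5.33 for CXCL10, 4.83 for CXCL11 and 1.03 for CXCL9.

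The baseline fold changes of the ligands were set against each other in the same way, a comparison added after seeing the data. The log2 fold change of CXCL9 minus that of CXCL10 was -2.39 ± 0.19 (SE; 95% confidence interval -2.87 to -1.92), and minus that of CXCL11 it was -1.81 ± 0.30 (-2.55 to -1.06). CXCL10 minus CXCL11 was 0.59 ± 0.32 (-0.20 to 1.38). The exact permutation p was 0.1 for the first and second pair and 0.2 for the third, or 0.15, 0.15 and 0.2 adjusted over the 3 pairs, where 0.1 is the smallest value 3 against 3 arrays allow. Against Caco-2, treated T84 gave a CXCL9 minus CXCL10 difference of -1.38 ± 0.19, a CXCL9 minus CXCL11 difference of 0.28 ± 0.30 (-0.46 to 1.02), and a CXCL10 minus CXCL11 difference of 1.66 ± 0.32, with adjusted exact permutation p values of 0.15, 0.3 and 0.15. Signals at background would distort these differences between ligands, and which signals stood above background is unknown.

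**Figure D4:**
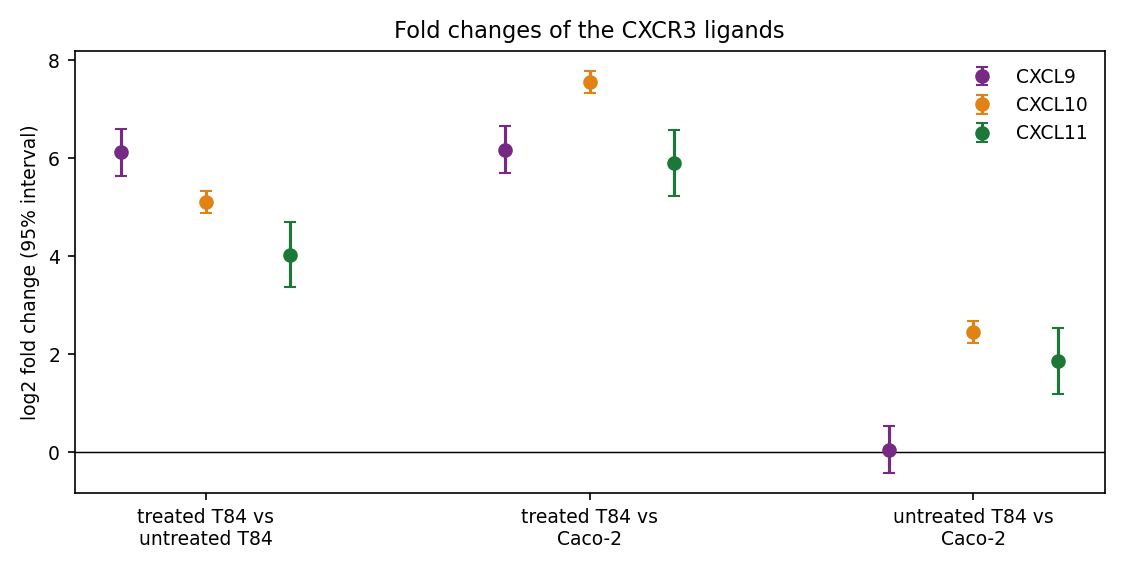
Log2 fold changes of CXCL9, CXCL10 and CXCL11 (vertical axis) in the 3 comparisons, with 95% confidence intervals from limma. CXCL9 has the largest change within T84, CXCL10 the largest against Caco-2, and only the CXCL9 interval in the comparison of untreated T84 with Caco-2 includes 0.

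The log2 difference between treated T84 and Caco-2 is the sum of the treated minus untreated difference and the baseline difference between the lines. For CXCL9, 6.18 was made up of 6.12 and 0.06, for CXCL10, 7.56 of 5.11 and 2.45, and for CXCL11, 5.90 of 4.04 and 1.86. Values near background may understate a baseline difference, so these parts are not read as shares.

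Genes with profiles most like the ligands over the 9 arrays were found by the root mean square difference between log2 profiles, each centred on its own mean. CXCL10 and CXCL11 were closest to each other, at 0.76 log2 units, while CXCL9 lay 0.97 from CXCL11 and 1.00 from CXCL10. Outside the ligands, TNFSF13B came nearest to all 3, at 1.19 from CXCL9, 1.49 from CXCL10 and 0.84 from CXCL11. CX3CL1, the membrane-anchored chemokine fractalkine, was the second nearest gene for each, at 1.58, 1.65 and 1.01. The third was the leukocyte adhesion molecule gene ICAM1 for CXCL9 (1.60), the lysosomal membrane glycoprotein gene LAMP3 for CXCL10 (1.68) and the chemokine gene CCL5 for CXCL11 (1.19). LAMP3 differed by 1.17 log2 units between treated and untreated T84 and by 3.50 between untreated T84 and Caco-2. ICAM1 differed by 3.17 and -0.62 in the same comparisons. The 9 arrays fall into 3 groups, so these distances mostly describe the 3 group means.

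The receptor gene CXCR3 itself did not pass in any of the 3 comparisons as deposited. Its log2 signals were 6.55, 6.55 and 6.55 in treated T84, against 6.58, 6.55 and 6.68 in untreated T84 and 6.55, 6.50 and 6.37 in Caco-2. The groups overlapped, and the log2 fold change of treated over untreated T84 was -0.05 ± 0.06 (SE; adjusted p = 0.759 in limma, n = 3 per group), or 0.10 with ribosomal centring. Untreated T84 over Caco-2 gave 0.13 ± 0.06 (adjusted p = 0.112 in limma), which passed without Caco-2 replicate 1 (adjusted p = 0.0474 in limma) and under median, quantile and ribosomal scaling (0.17, 0.16 and 0.43). Treated T84 over Caco-2 gave 0.08 ± 0.06 (adjusted p = 0.33 in limma), which passed with ribosomal centring, at 0.53, where 72.6% of all probe sets were called higher. Of the other listed binders, the eosinophil receptor gene CCR3, for which these chemokines are antagonists, stood at -0.07 ± 0.09. The heparan sulfate proteoglycan genes SDC1 and SDC4, whose chains can hold chemokines at the cell surface, stood at -0.52 ± 0.11 and 0.06 ± 0.09. SDC1 alone passed, as lower (adjusted p = 0.0187 in limma), and its call was lost without treated replicate 1 or 2 or untreated T84 replicate 2 or 3, at adjusted p values up to 0.0782. Thus 0 of 4 listed receptors and binders were higher and 1 lower, beside 4.37% and 5.8% of all probe sets.

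Of the 15 listed genes of interferon gamma signalling, 3 were in the table. None of them passed between treated and untreated T84 in limma, nor at an unadjusted p below 0.05. Over all probe sets 10.2% passed at the adjusted threshold in either direction, so none among 3 is near that share. IFNGR1, the ligand-binding receptor chain, had a log2 fold change of -0.01 ± 0.28, IFNGR2, the second receptor chain, -0.04 ± 0.06, and IFNG, the cytokine gene, 0.02 ± 0.05 (SE). With ribosomal centring they stood at 0.14, 0.12 and 0.18, and 1 of the 3 passed, beside 24.5% of all probe sets called higher. Both receptor chains were higher in untreated T84 than in Caco-2, beside 19.5% of all probe sets called higher. The difference was 1.08 ± 0.28 log2 units for IFNGR1 (adjusted p = 0.0127 in limma, n = 3 per group) and 0.46 ± 0.06 for IFNGR2 (adjusted p = 0.000406). Both calls held without each single array, with adjusted p values up to 0.0492 for IFNGR1 and 0.0026 for IFNGR2. JAK1, JAK2 and IRF1 were not analysed here.

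Other genes known to respond to interferon gamma were listed for comparison. Of 13 in the table, 8 passed as higher, none as lower and 5 did not pass, beside 4.37% higher and 5.8% lower over all probe sets. Their median log2 fold change was 0.43, and that of all probe sets -0.01. The largest was CD74, which encodes the class II invariant chain, at 3.54 ± 0.08 (SE; adjusted p = 2.55e-08 in limma). TNFSF13B followed at 3.42 ± 0.23, ICAM1 at 3.17 ± 0.15 and CX3CL1 at 2.37 ± 0.12. IFITM1, which encodes an antiviral membrane protein, was at 0.13 ± 0.10 and did not pass, with group means of 14.30 in treated T84 and 14.17 in untreated T84. The call of its relative IFITM2 (0.43 ± 0.11, adjusted p = 0.0479) was lost with arrays centred on their medians and without any of 7 single arrays, at adjusted p values up to 0.146. With ribosomal centring 10 of the 13 were higher, beside 24.5% of all probe sets on that scale.

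Among the CXC chemokines that carry the ELR motif and draw neutrophils through CXCR2, 3 of 7 passed as higher in treated T84 and none as lower, beside 4.37% and 5.8% of all probe sets, with a median log2 fold change of 0.11. CXCL2 was at 1.37 ± 0.23 (SE; adjusted p = 0.00717 in limma) on a probe set that can cross-hybridise with relatives, and at 1.20 ± 0.19 on its other probe set. CXCL3 was at 0.82 ± 0.19 (adjusted p = 0.0299) and CXCL1 at 0.75 ± 0.15 (adjusted p = 0.0168). The CXCL1 call was lost without untreated T84 replicate 1 or 3, and the CXCL3 call without any of 6 single arrays, at adjusted p values up to 0.0711 and 0.106. CXCL8, the main neutrophil attractant of the group, stood at 0.11 ± 0.16 and did not pass. None of 4 other CXC chemokines without the ELR motif passed by limma, nor at an unadjusted p below 0.05. Over all probe sets 10.2% passed at the adjusted threshold in either direction. CXCL12, which encodes the CXCR4 ligand, stood at 0.02 ± 0.09 and CXCL13, which encodes a chemokine for B lymphocytes, at -0.02 ± 0.06. CXCL14 stood at -0.02 ± 0.14 and the platelet chemokine gene PF4 at -0.13 ± 0.16. Under ribosomal centring CXCL12, CXCL13 and CXCL14 stood at 0.17, 0.13 and 0.14, and PF4 at 0.02. Against Caco-2 the chemokines with the ELR motif had 5 of 7 higher in treated T84, beside 19.4% of all probe sets. In untreated T84 4 of 7 were higher, beside 19.5%. Of these 4, CXCL1 (0.51 ± 0.15, adjusted p = 0.0279 in limma) lost its call when some single arrays were left out. These were untreated T84 replicates 2 and 3 and Caco-2 replicates 1 and 3, with adjusted p values up to 0.105. CXCL8 was at 2.14 ± 0.16 log2 units in untreated T84 over Caco-2.

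Of 24 CC, CX3C and XC chemokine genes, 5 passed as higher and 1 as lower, beside 4.37% and 5.8% of all probe sets, with a median of 0.03. CX3CL1, CCL5 and CCL2 were already counted as higher among the interferon gamma induced genes above. CCL2 rose by only 0.31 ± 0.05 log2 units, from a mean of 4.20 in untreated to 4.51 in treated T84. Its untreated mean lay at the level of the dimmest 10% of probe sets. Beside CX3CL1, CCL5 and CCL3, which attract T cells and monocytes, rose by 1.35 ± 0.11 and 1.35 ± 0.10 log2 units (SE; adjusted p = 9.23e-05 and 5.4e-05 in limma, n = 3 per group). CCL20, the ligand of CCR6, fell by 1.16 log2 units (adjusted p = 0.00375). CCL22, at 0.35 ± 0.09, lost its call without any of 7 single arrays, at adjusted p values up to 0.139. With ribosomal centring 13 of the 24 were higher and 1 lower, beside 24.5% and 4.13% of all probe sets. None of 14 other chemokine receptor genes passed in limma, nor at an unadjusted p below 0.05, while 10.2% of all probe sets passed at the adjusted threshold in either direction. With ribosomal centring 3 of the 14 passed, all as higher, near the 24.5% of all probe sets.

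**Figure D5:**
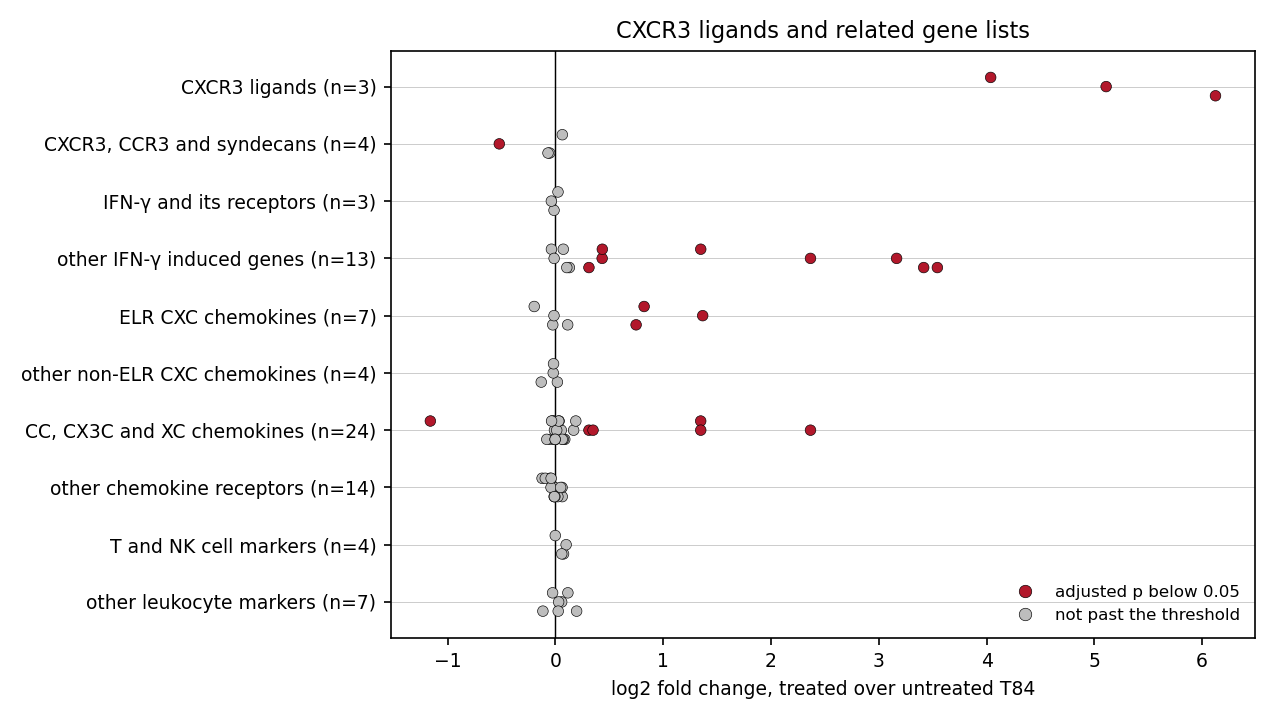
Log2 fold changes of treated over untreated T84 (horizontal axis) for the CXCR3 ligands and the measured members of related lists, 1 row per list with its number of genes; red points have an adjusted p below 0.05 in limma and grey points do not. The 3 ligands lie between 4.04 and 6.12, to the right of every listed gene, of which CD74 at 3.54 is the nearest.

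Markers of cells other than the epithelial lines were not called between treated and untreated T84 in limma. Over all probe sets 10.2% were called in either direction, so an absence of calls in lists this short says little about other cells. At an unadjusted p below 0.05 they had 0 calls among T and natural killer cell markers and 1 among other leukocyte markers. Fibroblast and endothelial markers had 0. The share of all probe sets at that unadjusted threshold is not given here. The T and natural killer cell markers CD2, NCAM1, KLRB1 and KLRD1 had 0 calls and a median log2 fold change of 0.07, and their summed linear signal was 294 to 313 in treated T84, against 282 to 299 in untreated T84 and 311 to 333 in Caco-2. The 7 other leukocyte markers had 0 calls and a median of 0.03, with sums of 420 to 440 in treated T84, against 397 to 434 in untreated T84 and 385 to 418 in Caco-2. The 5 fibroblast and endothelial markers also had 0 calls, with sums of 178 to 195 in treated T84, against 188 to 193 in untreated T84 and 258 to 281 in Caco-2. With ribosomal centring 2 of the 4 T and natural killer cell markers, 3 of the 7 other leukocyte markers and 2 of the 5 fibroblast and endothelial markers were called higher, beside 24.5% of all probe sets. No marker was at 0, as RMA gives every probe set a positive signal. The pan-leukocyte marker PTPRC and the CD3 chains were not analysed here.

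NAAA, which encodes a lysosomal amidase, was the only one of the listed protein-coding neighbours of the cluster in the table. Its brightest probe set had a log2 fold change of -0.09 ± 0.08 (SE; adjusted p = 0.677 in limma, n = 3 per group) between treated and untreated T84, and its other probe sets stood at 0.02 and -0.04. It was named after its values were seen.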

How the data were processed

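Total RNA from both lines was taken up in Trizol and labelled as biotinylated cRNA by the Affymetrix protocol, per the labels' protocols. The deposited values are log2 signals per probe set made by the authors with RMA, per the submitters' processing notes. No version, filter or genome build is given in the sources used here, and nothing was rescaled for the main results. Of 1259 probe sets, 1043 received exactly 1 symbol through their RefSeq accession, without its version.

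One linear model with 3 groups was fitted to all 9 arrays and moderated in limma 3.58.1 (R 4.3.3; 6 residual and 2.12 prior degrees of freedom), with two-sided tests, Benjamini-Hochberg adjustment across all 1259 probe sets, called at 0.05. The fit was tested on simulated data. Differences between ligands used within-array differences, an ordinary linear model over all 9 arrays for intervals, and exact permutation tests on the groups compared. For the comparisons with Caco-2 these were added after seeing the data, as was leaving out 3 arrays together. The brightest probe set stood for a gene.

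Named were the ligands, the 3 genes most like each, all measured receptor and signalling genes, and up to 4 members by adjusted p of other lists, with others named after their values were seen. One listed marker is not reported here. Members and lists were chosen with earlier results of these data known. Alternatives covered arrays, replicate block, moderation, scaling, dim probe sets, weights and adjustment. Python 3.11.15, pandas 2.3.3 and matplotlib 3.10.9 were used.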

Additional observations from a re-analysis of the deposited data

How the results depend on the processing

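Each of the 9 fold changes of the ligands was computed under 20 alternatives. Calls and directions were kept under all of them, except that CXCL11 in untreated T84 against Caco-2 was lost with Bonferroni adjustment (log2 fold change 1.86, adjusted p = 0.253) and that CXCL9 in the same comparison, which was not called, ran from -0.0006 to 0.36. Over the alternatives CXCL9 rose 59.9 to 84.2-fold in treated against untreated T84, CXCL10 31.9 to 38.4-fold and CXCL11 13.4 to 20.1-fold, with the highest adjusted p at 0.00152. Baseline folds over Caco-2 ran from 5.26 to 6.73 for CXCL10 and from 2.98 to 4.83 for CXCL11. No ligand had a second probe set. Same-numbered arrays of treated and untreated T84 had residual correlations of 0.386, -0.024 and 0.561. Differently numbered arrays of these groups had values from -0.512 to 0.397. Whether the numbers mark pairs cannot be told from these values. With the replicate block the ligands kept log2 fold changes of 6.12, 5.11 and 4.04, and no ligand call changed. The block took the SE within T84 from 0.21 to 0.20 for CXCL9, 0.10 to 0.09 for CXCL10 and 0.29 to 0.17 for CXCL11. The differences in response between ligands stayed within 0.84 and 1.42 (CXCL10 minus CXCL11), 0.86 and 1.23 (CXCL9 minus CXCL10) and 1.85 and 2.39 (CXCL9 minus CXCL11) when single arrays were left out.

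Background counts moved more. Treated against untreated T84 had 55 higher and 73 lower, which became 87 and 144 with array weights and 25 and 10 with Bonferroni adjustment. The lower count was 48 without moderation, and 40, 48 and 44 without treated replicate 2, treated replicate 3 and untreated T84 replicate 3. Treated T84 against Caco-2 gave 368 higher with array weights, and 101 higher and 163 lower with Bonferroni adjustment. Untreated T84 against Caco-2 gave 94 and 133 with Bonferroni adjustment, and 196 lower among the brighter probe sets. The signal over background was not given, which limits what can be said of dim values.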

Other observations

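Exactly equal values, to 6 decimals, recurred between arrays. At 559 of the 1259 probe sets (44.4%), at least 2 of the 9 arrays held the same value, and within treated T84, untreated T84 and Caco-2 this was so at 13.7, 16.0 and 8.4% of probe sets. CXCL10 had the same log2 signal, 7.93, in untreated T84 replicates 1 and 3, and CXCR3 the same 6.55 in 4 arrays of all 3 groups, so the spread of those values between arrays is partly 0. CXCL9 and CXCL11 had no equal values.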
